A study of Mus musculus with 6 samples.

Results

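Transcripts of 9 genes that macrophages use to call in and arouse other cells, namely the cytokine Tnf, the CC chemokines Ccl2, Ccl3, Ccl4, Ccl5, Ccl7 and Ccl9 and the CXC chemokines Cxcl2 and Cxcl10, were followed in RAW264.7 cells given a miR-125b mimic. They were taken as a list of gene symbols, and 7 of the 9 had a row among the 16665 Ensembl genes of the expression table. Ccl2 and Ccl7 had none and were not analysed here. RAW264.7 cells are an established murine line of leukaemic origin with macrophage traits. The cells of all 6 libraries were transfected and grown in the same serum-containing medium, with no inflammatory stimulus named in the labels. The mimic group (3 libraries, labelled as overexpressing miR-125b) was compared with the group given a negative control (3 libraries, labelled as wild type for miR-125b). Which arm of the microRNA the mimic holds is not in the labels, nor is it stated whether libraries of 1 group stem from different cultures. The p-values therefore reflect spread among these libraries alone, which may be technical.

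TNF is made as a membrane protein, cut free by a protease and read by a pair of receptors that switch on NF-kB signalling or cell death. Chemokines are small secreted proteins that guide leukocytes through G protein-coupled receptors; the CC and CXC classes are named for the spacing of their first cysteines. Resting macrophages keep these genes poised, and several of their mRNAs, that of Tnf among them, decay fast through AU-rich letters in the 3′ untranslated region (3′ UTR), a stretch that also holds most microRNA target sites.

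The sequences that could pair with the mimic are shown first. A microRNA recognises its targets mainly by its seed, bases 2 to 8, given here in capitals for the 3 mature arms made from both mouse miR-125b genes (RefSeq, GRCm38.p6; chromosome 9 for Mir125b-1, chromosome 16 for Mir125b-2).
mmu-miR-125b-5p: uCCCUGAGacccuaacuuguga
mmu-miR-125b-1-3p: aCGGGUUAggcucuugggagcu
mmu-miR-125b-2-3p: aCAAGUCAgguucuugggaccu
The 5p arm is the same from both genes, while no seed is shared between the arms. Sites for the 5p seed were searched in the sense strand of 1 annotated 3′ UTR a gene, the longest, as CTCAGGGA (8mer), CTCAGGG (7mer-m8, where not part of an 8mer) and TCAGGGA (7mer-A1, likewise).

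Of the 9 genes, Tnf was the 1 whose 3′ UTR held such a site. It was a single 7mer-m8 site in 764 bases, located at bases 35200014 to 35200020 of chromosome 17 in GRCm38 (minus strand), and is shown in capitals with the bases around it.
Tnf 7mer-m8 site, chr17:35200002-35200031, minus strand: ggggattatggCTCAGGGtccaactctgtg
A 7mer-m8 site was found in 11.1% of the 9312 tested genes with a 3′ UTR, and any of the 3 kinds in 22.2%. The letters of a site do not show that it was bound.

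The AU-rich pentamer ATTTA, which may overlap itself, was found in 8 of the 9 genes, and in 70.4% of tested genes with a 3′ UTR. The 30 bases richest in it are shown for the 3 genes with the most pentamers per base, with the pentamers in capitals.
Tnf, chr17:35199679-35199708, minus strand: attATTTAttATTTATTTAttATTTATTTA
Ccl3, chr11:83648085-83648114, minus strand: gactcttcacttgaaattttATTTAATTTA
Cxcl2, chr5:90905327-90905356, plus strand: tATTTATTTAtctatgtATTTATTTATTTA
Tnf held 8 pentamers (10.47 per kilobase of 3′ UTR), Ccl3 held 5 (12.22 per kilobase) and Cxcl2 held 11 (7.36 per kilobase). The median over tested genes was 1.38 per kilobase, and a density at least as high as that of Tnf, Ccl3 and Cxcl2 was found in 0.848%, 0.462% and 2.31% of them. Ccl4 came next with 2 (6.62 per kilobase), Cxcl10 held 3, Ccl9 held 5 in its long 3′ UTR of 2465 bases, and Ccl5 held 0 in 199 bases. The genes not measured, Ccl2 and Ccl7, held 1 and 2.

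The libraries were of like depth, between 14.45 M and 16.81 M fragments as recovered from the low values of the table, but not of like breadth. Negative control 3 had 13266 genes above 0 and the other 5 libraries had 15141 to 15470. On the log2 scale it was closer to the mimic mean than to the mean of negative controls 1 and 2 in 6684 of 10166 tested genes (65.7%), and in 4 of the 6 tested members of the group described here (Ccl3, Ccl4, Tnf and Cxcl10). All 8 macrophage markers had a row and 7 were tested. Lyz2 read 6515 to 7838 FPKM (fragments per kilobase of gene, scaled to library depth) in the controls and 5720 to 5998 in the mimics, Cd68 read 284 to 444 over all libraries, Fcgr1 1.13 to 3.57 and Mertk 0.0686 to 0.345. The list summed to 7115 to 8586 FPKM in the controls and 6354 to 6625 in the mimics, most of it from Lyz2. Its part in the results was not tested. In every marker but Lyz2 the groups overlapped. Control and mimic means were 387 and 306 FPKM for Cd68, 116 and 116 for Csf1r, and 20.8 and 19.8 for Adgre1. They were 168 and 157 for Cd14, 15.2 and 13.5 for Itgam, 2.47 and 2.37 for Fcgr1, and 0.202 and 0.237 for Mertk. The marker lists of fibroblasts, T cells, B cells, epithelium and neutrophils each summed to at most 0.726 FPKM in any library, and 0 of the 4 epithelial markers had a row.

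On the FPKM scale, which allows for gene length, the 7 genes spanned more than 2 orders of magnitude. Ccl3 stood far above the rest, Ccl9 and Ccl4 came next, then Tnf, and Ccl5, Cxcl10 and Cxcl2 were the lowest. Ccl9 was above Ccl4 in 5 of 6 libraries, but by little in several, and below it in control 2: control 1 read 62.5 FPKM for Ccl9 and 60.6 for Ccl4, control 2 read 64.8 and 67.7, and control 3 read 81.3 and 40.0. Mimic 1 read 55.6 and 52.8, mimic 2 read 61.7 and 49.6, and mimic 3 read 61.3 and 56.5. Ccl5 and Cxcl10 could not be ordered, as their ranges of 1.49 to 2.74 and 0.966 to 3.20 FPKM overlapped. Mean FPKM over the 6 libraries was at least 1 in 6 of the 7, which were tested. Cxcl2 lay just under that limit at a mean of 0.999, and Ccl5 and Cxcl10 averaged 2.12 and 2.11.

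**Figure D1:**
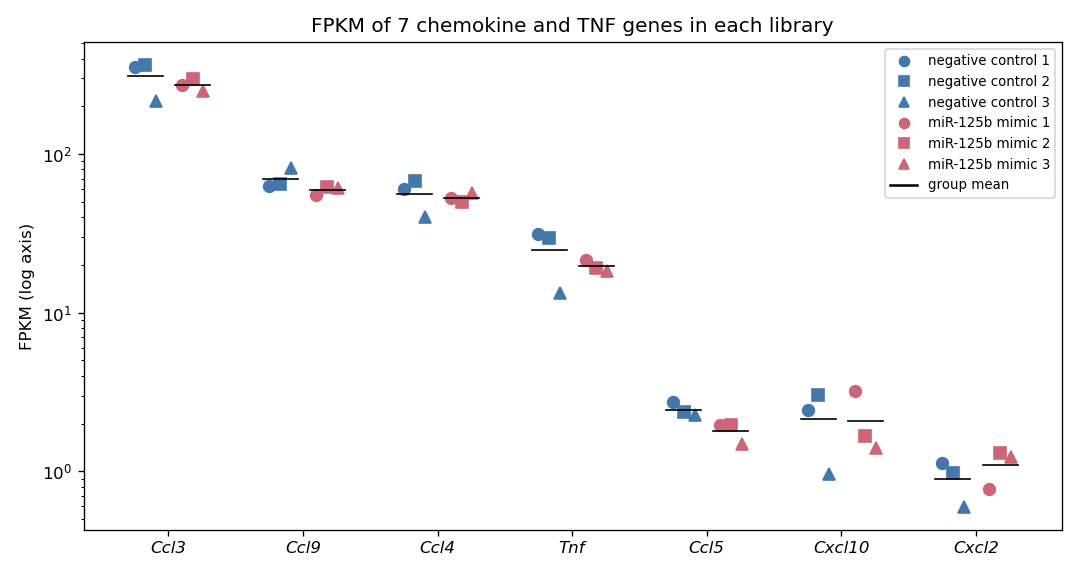
FPKM (log axis) of the 7 genes with a row, as points for each of the 3 negative control (blue) and 3 mimic (red) libraries, with bars at the group means. Negative control 3 (blue triangle) is the lowest of the 6 libraries for Ccl3, Ccl4, Tnf, Cxcl10 and Cxcl2 and the highest for Ccl9.

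Tnf, the cytokine itself (ENSMUSG00000024401, chr17:35199381-35202007, minus strand), read 31.5, 29.7 and 13.4 FPKM in negative controls 1, 2 and 3, and 21.4, 19.0 and 18.3 FPKM in mimics 1, 2 and 3. The mimics lay close together and between the controls: below controls 1 and 2 by a wide margin and above control 3. Group means were 24.8 ± 9.99 and 19.6 ± 1.60 FPKM (SD, n = 3), a log2 fold change, mimic minus control on log2(FPKM + 1), of −0.24 (SE 0.30; 95% interval −0.94 to 0.46; limma adjusted p = 0.744). Each value rested on 322 to 819 fragments, so counting error was at most 5.6% if each fragment were 1 molecule. The spread among the controls, 0.66 as an SD on the log2 scale against 0.11 among the mimics, set the width of the interval.

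The estimate for Tnf turned on 1 library. Without negative control 3 the difference was −0.62 (SE 0.09) and passed (limma adjusted p = 0.00802), while without negative control 1 it was −0.032 and without negative control 2 it was −0.072. The same holds within pairs of equal number: the mimic was lower than its control by 0.54 and 0.62 in pairs 1 and 2 (log2 −0.54 and −0.62) and higher by 0.43 in pair 3. With a trend of each library on gene length and GC content removed, the difference was −0.10, and −0.37 without negative control 3 as well (limma adjusted p = 0.0642).

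Ccl3, or MIP-1α (ENSMUSG00000000982, chr11:83647844-83649355, minus strand), a ligand of the receptor Ccr1, was by far the most abundant. It read 356, 367 and 215 FPKM in the controls and 272, 297 and 251 FPKM in the mimics, with means of 313 ± 85.0 and 273 ± 23.3 (SD, n = 3). Again the 3 mimics lay between control 3 and the other controls, and the groups overlapped (log2 fold change −0.16, SE 0.22; 95% interval −0.66 to 0.35; limma adjusted p = 0.769). Without negative control 3 it was −0.40 and passed (limma adjusted p = 0.0231), and leaving it out after trend removal gave −0.41, which passed as well (limma adjusted p = 0.0436). Without negative control 2 it was −0.019, and under quantile normalisation of all 6 libraries it was 0.089.

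Ccl4, or MIP-1β (ENSMUSG00000018930, chr11:83662584-83664683, plus strand), an attractant of monocytes and T cells whose gene lies 13229 bases from Ccl3 on chromosome 11, read 60.6, 67.7 and 40.0 FPKM in the controls and 52.8, 49.6 and 56.5 in the mimics. The means of 56.1 ± 14.4 and 52.9 ± 3.49 FPKM (SD, n = 3) were close, with a log2 fold change of −0.05 (SE 0.20; 95% interval −0.51 to 0.41; limma adjusted p = 0.929). It did not pass without negative control 3 either (−0.27, limma adjusted p = 0.0688). Per unit of length there was 4.44 to 6 times as much Ccl3 as Ccl4 in each library. The ratio of Ccl3 to Tnf ran from 11.3 in control 1 to 16.1 in control 3, a similar relative range.

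Ccl9 (ENSMUSG00000019122, chr11:83572919-83578636, minus strand), a CC chemokine of myeloid cells that acts through Ccr1, differed in pattern from Ccl3 and Ccl4 in the same gene cluster. It read 62.5, 64.8 and 81.3 FPKM in the controls and 55.6, 61.7 and 61.3 in the mimics, so control 3 was the highest library, as it was for the adjacent, barely detected Ccl6. All 3 mimics lay below all 3 controls, the nearest pair being 61.7 and 62.5. The difference was −0.21 (SE 0.13; 95% interval −0.52 to 0.098; limma adjusted p = 0.506) and −0.097 without negative control 3. With the length and GC trend removed it was −0.34 (limma, unadjusted p = 0.0163, adjusted p = 0.434).

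Ccl5, or RANTES (ENSMUSG00000035042, chr11:83525778-83530518, minus strand), which draws T cells and monocytes, was the other gene whose groups did not overlap. It read 2.74, 2.35 and 2.27 FPKM in the controls and 1.95, 1.95 and 1.49 in the mimics, means of 2.45 ± 0.251 and 1.79 ± 0.264 (SD, n = 3). Its log2 fold change of −0.31 (SE 0.15; 95% interval −0.65 to 0.033; limma adjusted p = 0.41) had the smallest p of the 6. It varied least with the library left out, between −0.23 and −0.35, and was −0.16 after trend removal. These levels came from 22 to 41 fragments a library, and the exact Poisson 95% intervals of control 3 (1.55 to 3.20 FPKM) and mimic 1 (1.28 to 2.83 FPKM) overlapped. Such intervals cover counting error only, and fragments copied from 1 molecule would widen them.

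Cxcl10 (ENSMUSG00000034855, chr5:92346638-92348889, minus strand), an interferon-inducible ligand of Cxcr3, read 2.42, 3.01 and 0.966 FPKM in the controls and 3.20, 1.66 and 1.41 in the mimics. High and low libraries occurred in both groups, and the difference was −0.00066 (SE 0.32; 95% interval −0.75 to 0.75; limma adjusted p = 0.999), an interval that leaves room for a change of over 1.5-fold either way. Its gene overlaps Art3, which runs the other way, and since it is not known whether counting used strand its value is uncertain, although Art3 itself read at most 0.163 FPKM. Cxcl2 (ENSMUSG00000058427, chr5:90903871-90905938, plus strand), the mouse neutrophil attractant MIP-2, read 1.12, 0.978 and 0.592 FPKM in the controls and 0.770, 1.31 and 1.23 in the mimics, from 18 to 45 fragments. With no filter on low values its difference was 0.15 (SE 0.17; limma adjusted p = 0.792), the 1 estimate of the 7 above 0.

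**Figure D2:**
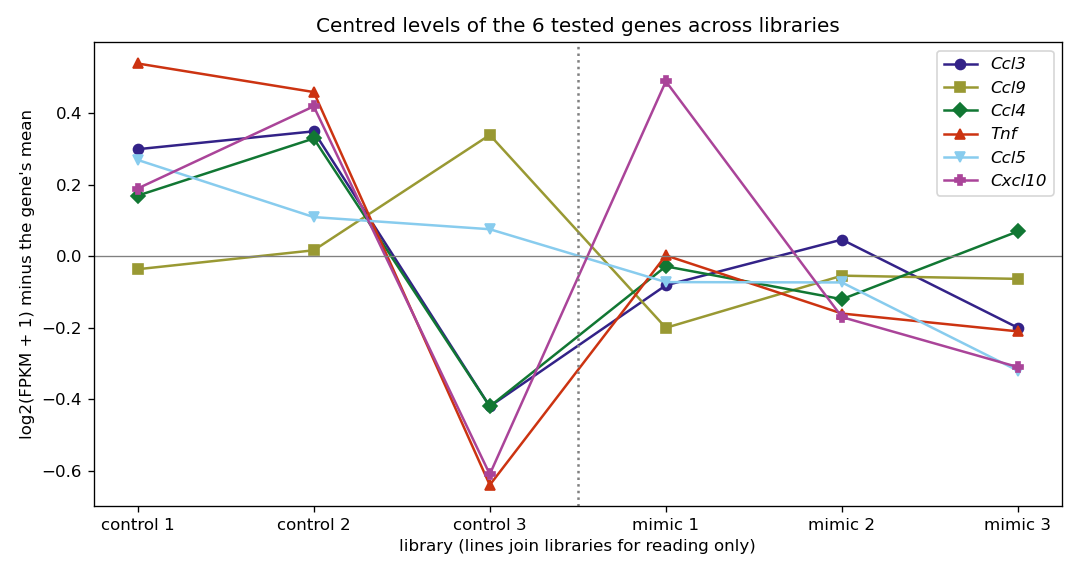
Log2(FPKM + 1) of the 6 tested genes in each library after subtracting the gene's mean over the 6 libraries, controls left and mimics right of the dotted line. Tnf, Ccl3, Ccl4 and Cxcl10 fall together at negative control 3, by −0.42 to −0.64, where Ccl9 stands at 0.34 and Ccl5 at 0.076.

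As a group, 0 of the 6 tested genes passed limma's adjusted p of 0.05, where 0 of all 10166 tested genes did (0%). At an unadjusted p under 0.05 there were also 0, by limma and by limma voom on recovered fragments. Over all genes the limma shares were 5.26% lower and 7.96% higher. All 6 estimates were below 0, as were 43.7% over all genes, and their median was −0.18 beside 0.041 over all genes. Groups did not overlap, with the mimics lower, in 2 of the 6 (Ccl5 and Ccl9) and in 7.49% of all genes; with the mimics higher the figures were 0 of 6 and 12.6%. Without negative control 3, 2 of the 6 passed, Tnf and Ccl3, both lower, while 12.2% of all genes passed lower, and the median of the 6 was −0.33. With the length and GC trend removed as well, 1 passed (Ccl3) beside 2.81% of all genes, and array weights, which scale each library by its fit, gave 3 (Tnf, Ccl3 and Ccl4) beside 22.0%. Without negative control 1 or 2, 4 of 6 estimates were below 0 (40.1% and 41.2% of all genes) and the medians were −0.037 and −0.045.

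**Figure D3:**
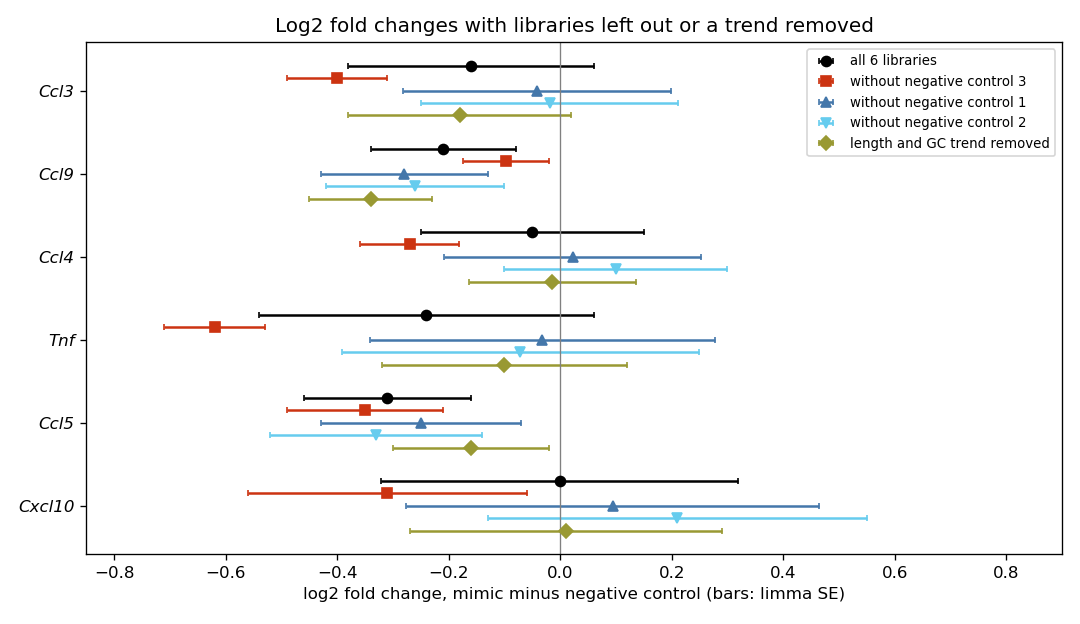
Log2 fold change (mimic minus negative control, bars for limma's SE) of the 6 tested genes with all libraries, with each control left out, and after removal of the trend on length and GC. Leaving out negative control 3 moves Tnf from −0.24 to −0.62 and Ccl3 from −0.16 to −0.40, and moves Ccl9 the other way, from −0.21 to −0.097.

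Profiles over the 6 libraries near to those of the group were sought among named tested genes, with the members left out. The genes named as nearest are therefore all non-members, and shared regulation was not tested. Nearest to Tnf by root mean square distance of centred log2 values were Anxa6, a calcium-dependent membrane-binding annexin (0.036), Pcx, the pyruvate carboxylase (0.038), and Haus8, a subunit of the spindle augmin complex (0.038). Ccl3 lay at 0.164 from Tnf, Ccl4 at 0.217 and Ccl9 at 0.509. Nearest to the mean profile of the 6 genes were Lrwd1 (0.033), which binds the origin recognition complex, the membrane protein Tmem50a (0.035) and Nop2, a nucleolar rRNA methyltransferase (0.036).

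In GRCm38 the CC genes of chromosome 11 form a pair of blocks 1220088 bases apart. In the first, Ccl2, Ccl7, Ccl11, Ccl12, Ccl8 and Ccl1, 0 of 6 had a row. In the second, Ccl5, Ccl9, Ccl6, Ccl3 and Ccl4, all 5 did, though Ccl6 read only 0.143 to 0.530 FPKM. On chromosome 5, Cxcl2 and Pf4 (0 to 1.04 FPKM) had rows while Cxcl1, Cxcl3, Cxcl5, Cxcl15 and Ppbp, in the same stretch, had none, and Cxcl9, which neighbours Cxcl10, was above 0 in 2 libraries, at up to 0.0399 FPKM.

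Among 28 other chemokines 11 had a row and 1 was tested. This was Cxcl16, a membrane-bound scavenger receptor and Cxcr6 ligand, which read 17.0, 17.9 and 10.3 FPKM in the controls and 13.9, 14.1 and 9.62 in the mimics (log2 fold change −0.23, SE 0.23; limma adjusted p = 0.69; −0.061 without mimic 3 and −0.46 without negative control 3). Under the filter, 3 further chemokines had groups that did not overlap, chosen after their values were seen. Among all genes under the filter, groups did not overlap, in either direction, in 10.5%. Cxcl14, an orphan CXC chemokine, read 1.61, 1.69 and 1.19 FPKM in the controls and 0.265, 0.462 and 0.498 in the mimics, from 32 to 52 and 7 to 14 fragments. Ccl22, a Ccr4 ligand, read 0.441, 0.230 and 0.205 in the controls, 0.0595 in mimic 1 and 0 in mimics 2 and 3. Ccl25, a Ccr9 ligand, went the other way, from 0.551 to 0.703 in the controls and 0.934 to 1.26 in the mimics. With no filter on low values 0 of the 11 passed limma, and 2 were lower and 1 higher at an unadjusted p under 0.05.

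Of 23 chemokine receptors 15 had a row and 3 were tested, of which 0 passed and 0 had an unadjusted p under 0.05 by limma or voom. Ccr1, a receptor for Ccl3, Ccl5 and Ccl9, was near 0, at 0.096 to 0.357 FPKM. Cx3cr1, the fractalkine receptor of monocytes, read 6.80, 5.69 and 2.69 FPKM in the controls and 9.22, 7.67 and 4.66 in the mimics (log2 fold change 0.46, SE 0.33), with library 3 lowest in both groups and the mimic higher in all 3 pairs of equal number. With the replicate block Cx3cr1 had an unadjusted limma p of 0.00958 and Ccr10 of 0.0364, and 0 of the 3 passed (limma adjusted p = 0.266 and 0.285). The share of all genes under 0.05 in that fit, or higher in all 3 pairs, was not counted. Ccr10, a receptor for skin chemokines, read 1.54 ± 0.613 and 0.810 ± 0.116 FPKM (SD, n = 3; −0.46, SE 0.20, limma adjusted p = 0.386; −0.22 after trend removal and −0.28 without negative control 3), and Cxcr4, the Cxcl12 receptor, 2.23 ± 0.283 and 1.85 ± 0.291.

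The machinery that frees and reads TNF gave no call with all 6 libraries. Of 6 tested genes, 0 passed and 0 had an unadjusted p under 0.05 by limma or voom, with a median of −0.15. Adam17, the protease that sheds TNF, read 31.6 ± 1.86 FPKM in controls and 35.9 ± 3.25 FPKM in mimics (SD, n = 3; difference 0.17 on the log2 scale, SE 0.12). The receptor Tnfrsf1a read 14.5 ± 3.03 and 11.9 ± 1.09 (−0.25, SE 0.16), and the iRhoms that escort Adam17 stood at −0.20 (Rhbdf2, SE 0.18) and −0.15 (Rhbdf1, SE 0.14). Rhbdf2 was the 1 gene of this list to pass without negative control 3 (−0.38, limma adjusted p = 0.0469), where 12.2% of all genes passed lower. After trend removal in that fit Rhbdf2 was −0.093 and 0 of the list passed. With all libraries and that trend removed, Adam17 was at −0.0026, Tnfrsf1a at −0.063, Rhbdf2 at −0.069 and Rhbdf1 at −0.049.

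Downstream of the receptor, 17 of 18 genes were tested and 0 passed. An unadjusted p below 0.05 was reached by 2 higher and 2 lower in limma, and by 2 and 1 in voom. Over all genes the limma shares were 7.96% higher and 5.26% lower. The kinase Map3k7, or TAK1, read 14.1, 14.2 and 13.1 FPKM in the controls and 18.2, 18.6 and 17.8 in the mimics (log2 fold change 0.38, SE 0.10, limma adjusted p = 0.332). Its adaptor Tab2 read 27.0, 26.8 and 29.7 and then 36.2, 35.3 and 33.3 FPKM (0.32, SE 0.10, adjusted p = 0.332 by limma). The deubiquitinase Otulin stood at −0.28 (SE 0.10) and the ubiquitin ligase subunit Sharpin at −0.31 (SE 0.12), with groups that did not overlap. Over all genes, groups did not overlap, with the mimics lower, in 7.49%. After removal of the length and GC trend, Map3k7 was at 0.21, Tab2 at 0.23, Otulin at −0.094 and Sharpin at −0.18. Without negative control 3, Map3k7 (0.34) and Tab2 (0.36) passed higher and the ligase subunit Rbck1 (−0.53) passed lower. In that fit 2412 of all 10166 tested genes passed. With the trend removed too, Tab2 passed (0.34), as did 389 of all genes, and Map3k7 (0.17) and Rbck1 (−0.20) did not. The median of the 17 was 0.053, close to the 0.041 of all genes.

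Regulators of AU-rich and stem-loop mRNAs include proteins that shorten or stall Tnf and chemokine messages, the stabilising protein Elavl1, and kinases and a phosphatase that act on such proteins. Of 14 tested, 0 passed, with a median of 0.022. By limma 2 higher and 0 lower had an unadjusted p below 0.05 (voom gave the same counts). Over all genes the limma shares were 7.96% and 5.26%. Rc3h1, or Roquin-1, which destabilises stem-loop mRNAs such as Tnf, read 39.6, 38.0 and 38.4 FPKM in the controls and 53.3, 54.4 and 47.4 in the mimics (log2 fold change 0.41, SE 0.11, limma adjusted p = 0.332). Its estimate was 0.11 with the length and GC trend removed. Tia1, a translational silencer of Tnf, read 5.49 ± 1.96 and 8.74 ± 0.647 FPKM (SD, n = 3; 0.62, SE 0.21; 0.28 with that trend removed), Rc3h2 stood at 0.35 (SE 0.17; −0.056 with the trend removed) and the kinase Mapkapk2 at −0.19 (SE 0.12; 0.0036 with the trend removed).

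Zfp36, or tristetraprolin, which binds ATTTA repeats and speeds Tnf decay, was singled out after its values were seen. It read 28.4, 30.7 and 14.4 FPKM in the controls and 17.2, 16.6 and 19.0 in the mimics. As for Tnf, control 3 was the lowest library and the mimics lay between it and the other controls (log2 fold change −0.39, SE 0.27; −0.72 without negative control 3, limma adjusted p = 0.00614). In that same fit Rc3h1, Tia1, Rc3h2 and Tial1 passed higher. Over all 10166 tested genes 2412 passed in that fit, and 12.2% of all genes passed lower. With the trend removed as well, 0 of the 14 passed: Zfp36 was at −0.46 (limma adjusted p = 0.0629), Tia1 at 0.40, Rc3h1 at 0.0073, Rc3h2 at −0.042 and Tial1 at 0.13.

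Other macrophage cytokines gave no call either with all libraries (0 of 7 tested, median −0.17). An unadjusted p below 0.05 was reached by 1 higher and 0 lower in limma, likewise in voom. Over all genes the limma shares were 7.96% higher and 5.26% lower. Il15, which sustains lymphocytes, averaged 23.5 ± 4.08 FPKM in controls and 30.6 ± 2.31 FPKM in mimics (SD, n = 3; difference 0.38 on the log2 scale, SE 0.15, limma adjusted p = 0.354). Tgfb1 stood at −0.41 (SE 0.21), the interleukin subunit Il27 at −0.50 (SE 0.27; −0.21 without mimic 2, which held 3 fragments, and −0.29 after trend removal) and Mif at −0.42 (SE 0.31). Without negative control 3, Il15 (0.51) passed higher and Tgfb1 (−0.63) and Mif (−0.80) passed lower. In that fit 12.2% of all genes passed lower, and 2412 of 10166 passed in either direction. With the trend removed too, Il15 passed (0.66), as did 389 of all genes, and Tgfb1 (−0.47) and Mif (−0.40) did not. With all libraries and the trend removed, Mif was at −0.16. Mif, abundant at 792 to 1773 FPKM and uncertain because of its processed pseudogenes, was lowest in negative control 3. In this list Il1b read at most 0.321 and Il1a at most 0.132 FPKM, and Il6, Il12a and Il12b had no row. Il18 read 14.8 to 19.7 FPKM over the 6 libraries and Osm 2.57 to 4.57.

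**Figure D4:**
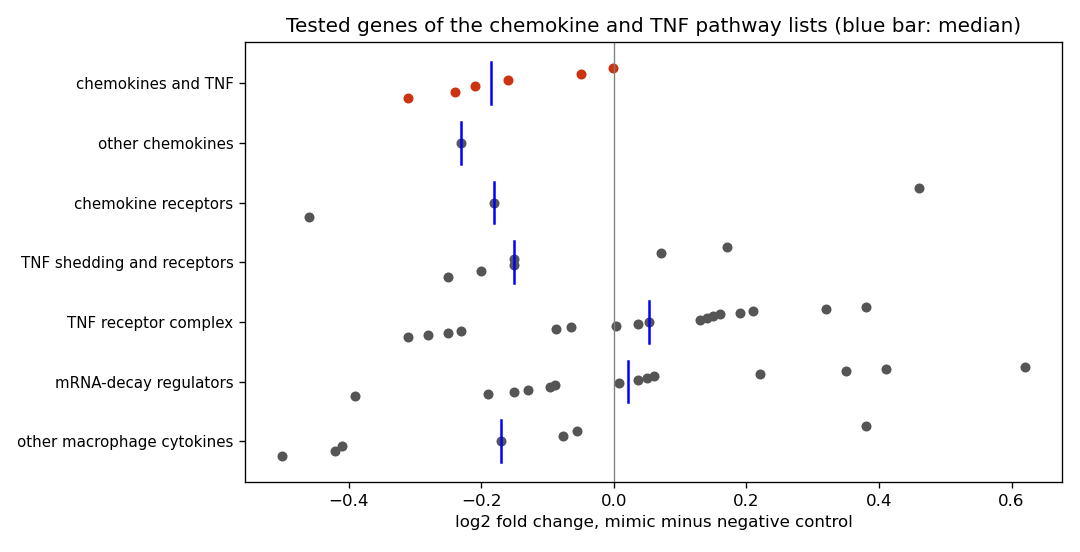
Log2 fold change (mimic minus negative control, all 6 libraries) of each tested gene, as 1 point, in the 6 chemokine and TNF genes (red) and the 6 pathway lists (grey), with a blue bar at each median. Medians run from −0.23 to 0.053, and each pathway list with more than 1 tested gene has points on both sides of 0.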

How the data were processed

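RNA-seq libraries were made from total RNA with a SMARTer kit, per the labels' protocols. The authors deposited 1 table of FPKM values; fastp, HISAT2, DESeq2 and mm10 are named in the submitters' processing notes, and versions, annotation, counting tool and strand were not given in the sources used here. Symbols, positions and 3′ UTRs came from GENCODE M21 on GRCm38, the assembly mm10 names (16582 of 16665 identifiers found). Groups came from sample titles. Genes averaging 1 FPKM or more were tested on log2(FPKM + 1) with limma 3.58.1 in R 4.3.3 (mean-variance trend, two-sided, Benjamini-Hochberg over all 10166). This scale understates changes of low genes. The fit was tested on simulated data. Fragments were recovered from the steps of low values (98.5% to 99.0% whole within 0.1 of a fragment, up to 20 fragments).

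Members and lists were chosen with earlier results of these data known. Named by rule are all members, up to 4 genes per pathway list by smallest p, the nearest profiles, and the members' neighbours in the chemokine gene clusters. Further genes were named after their values were seen. Among them are Rbck1 and Tial1, which passed without negative control 3. Equal replicate numbers went with correlated deviations across genes (0.287, 0.183 and 0.339 for pairs 1, 2 and 3), although control 2 with mimic 1 reached 0.308, so a replicate block was fitted as an alternative; the pairing comes from the values, as the labels do not state it. Alternatives covered pseudocount, filter, scaling, weights, block, length and GC, voom and each library left out.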

Additional observations from a re-analysis of the deposited data

How the results depend on the processing

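No chemokine or TNF gene passed with all 6 libraries at equal weight, whatever the pseudocount (1 or 0.1), filter, scaling, replicate block, trend removal or voom. With the replicate block 0 of the 6 passed and 0 of all genes, the median staying at −0.18, so it changed no call; a block with the length and GC trend removed, added after the data were seen, also gave 0. Calls appeared where negative control 3 was left out or weighted down. With 1 library left out, the members called ranged from 0 to 2 and all genes called from 0 to 2412, the upper ends without negative control 3. The pathway lists then ranged from 0 to 1 (TNF shedding and receptors), 0 to 3 (receptor complex), 0 to 5 (mRNA regulators) and 0 to 3 (other cytokines). With that library left out and the trend removed, 1 member and 389 genes were called. Array weights, 0.0908 for negative control 3 against 0.339 to 3.44, called 3 members (Tnf −0.55, Ccl3 −0.36, Ccl4 −0.31) and 4808 genes (22.0% of all genes lower). Signs turned for Ccl3 under quantile normalisation (0.089). For Ccl4 the range with 1 library left out was −0.27 to 0.10, above 0 without negative control 1 (0.022) or 2. For Cxcl10, at −0.00066, the estimate was 0.024 with a pseudocount of 0.1, 0.01 with the trend removed with or without the block, and −0.31 to 0.21 with 1 library left out. The cause was not tested. Depth limits Ccl5, Cxcl10 and Cxcl2.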
